A study of Mus musculus with 15 samples.

Results

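GABA and glycine signalling genes are the genes that make, package, take up and respond to the inhibitory transmitters GABA and glycine. A fixed list of 26 such genes was followed by symbol through every expression table of a mouse thalamus RNA-seq series, and all 26 were found among the 25080 genes of every table. The list holds the enzymes and carrier of GABA synthesis, vesicular loading and breakdown (Gad1, Gad2, Slc32a1, Abat), the uptake carriers Slc6a11, Slc6a5 and Slc6a9, 10 GABA-A receptor subunit genes, both GABA-B receptor genes, 3 glycine receptor subunit genes, the postsynaptic genes Gphn and Nlgn2, and the trafficking genes Gabarap and Gabarapl1. With a minimum of 1 TPM (a relative abundance corrected for transcript length) in at least 3 libraries, 25 of the 26 were tested among 13471 genes. Slc6a5, the neuronal glycine carrier, was below that minimum and ranged from 0 to 0.184 TPM after scaling.

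The series measured the dissected thalamus of adult mice, 2 to 4 months old, in which Maged1 was either floxed (Maged1 Loxp, the control, called Maged1 WT in the sample titles) or inactivated in Vglut2 glutamatergic neurons by Cre under the vGluT2 promoter (Maged1 cKO). All mice received saline for 3 days and then, for 5 days, either cocaine (20 mg/kg, intraperitoneal) or saline. Each of the groups control saline, control cocaine and cKO saline had 4 libraries and cKO cocaine had 2, or 14 in all. 1 more sample of the last group was not analysed here. The driver is expressed in glutamatergic neurons, so that GABAergic neurons and glia, which the bulk tissue also holds, are not its targets. The design asks how thalamic gene expression changes with repeated cocaine, and whether loss of Maged1 in Vglut2 neurons alters that change.

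GABA is made from glutamate by the decarboxylases GAD67 and GAD65 (Gad1 and Gad2) and loaded into vesicles by the carrier VGAT (Slc32a1), which also loads glycine. GABA-A receptors are chloride channels built of alpha, beta and gamma or delta subunits, and GABA-B receptors are G-protein-coupled receptors made of Gabbr1 and Gabbr2 proteins joined as a pair. In the rodent thalamus most relay nuclei hold few GABAergic neurons of their own, and their main inhibition comes from the surrounding thalamic reticular nucleus, whose neurons express parvalbumin and somatostatin. In bulk tissue, fewer cells of a type and less RNA per cell cannot be told apart.

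The labels and the libraries differed in several ways that touch the values. Maged1 itself stood at 153, 167, 150.3 and 152 TPM in control saline and at 78.2, 76.8, 68.7 and 64.7 TPM in cKO saline, but 58.2, 87.3, 76.8 and 71.3 TPM were found under the label control cocaine and 152 and 173 TPM under cKO cocaine. For 4 saline libraries (control saline 3 and 4, cKO saline 1 and 2) the genotype tag named the other genotype than the title. After saline Maged1 followed the titles, in these 4 libraries as well. After cocaine the targeted gene ran against the genotype labels. Cocaine was for this reason also compared with saline as the mean of both genotype labels, a value that stays the same if the labels of both cocaine groups are exchanged. Differences within a genotype label and the interaction depend on those labels. TPM were divided by trimmed-mean (TMM) factors, which lay between 0.813 and 0.949 in cocaine libraries and between 1.07 and 1.21 in saline libraries. As deposited, the TPM of all tested genes had a median log2 difference of -0.34 between cocaine and saline, and all changes below are relative to that shift. TPM keep no read counts, so the depth behind each value is unknown. The summed markers of neighbouring regions varied between libraries. Hypothalamic markers (Oxt, Avp and 8 other genes) had sums of 142 to 518 TPM in control saline, 8.56 to 133 TPM in control cocaine, 15.3 to 155 TPM in cKO saline and 65.1 to 111 TPM in cKO cocaine, and habenular markers ranged from 8.42 TPM in control cocaine 4 to 171 TPM in control cocaine 1. Markers of thalamic glutamatergic neurons (8 genes, none listed at 0) had sums of 372 to 517 TPM in control saline, 496 to 692 TPM in control cocaine, 457 to 590.0 TPM in cKO saline and 469.7 to 576 TPM in cKO cocaine.

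Between the members, scaled levels ran over more than 2 orders of magnitude, from Gabre to Gabbr1. Gabbr1 had a median of 181 TPM over the 14 libraries, the autophagy-related trafficking gene Gabarapl1 159 TPM, and the astrocytic GABA carrier Slc6a11 (GAT-3) 122 TPM. Gabrb2 and Gabra4, subunits of thalamic GABA-A receptors, stood at medians of 49.0 and 45.2 TPM, and Gabrd, the subunit of extrasynaptic receptors that carry tonic current in relay neurons, at 26.8 TPM. Glra3 and Gabre were lowest of those tested, at 2.67 and 0.772 TPM. Most members varied little: the highest library was 1.19 times the lowest for Gabarapl1, 1.19 times for Nlgn2 and 1.25 times for Abat. The ratio was 3.75 for Gabre, 8.97 for Gad2, 11.2 for Slc32a1 and 17.8 for Gad1.

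**Figure D1:**
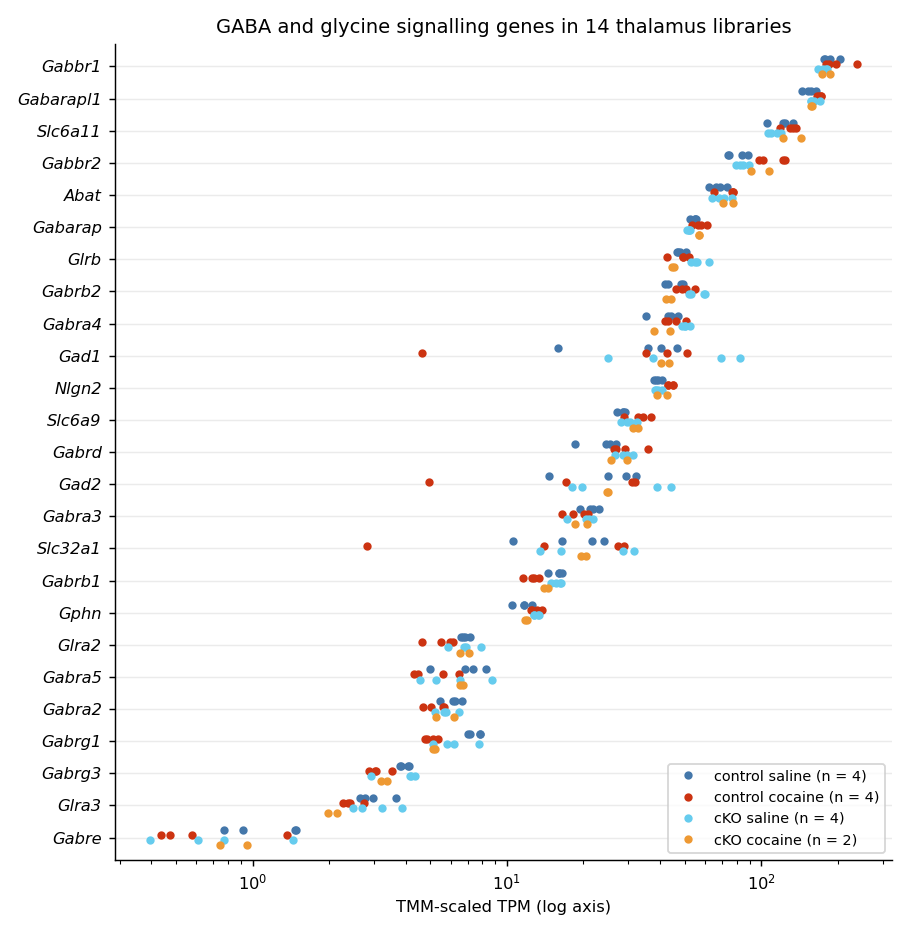
TMM-scaled TPM (log axis) of the 25 tested members in each of the 14 libraries, genes ordered by their median and points coloured by group. Most genes form tight rows, whereas Gad1, Gad2 and Slc32a1 spread widely, with 1 library labelled control cocaine far below the rest.

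Gad1, Gad2 and Slc32a1, which define GABAergic neurons, all lie on mouse chromosome 2 but far apart (chr2:70553072-70602014, chr2:22622205-22693874 and chr2:158610767-158615748 of GRCm38, plus strand). Their upstream bases from the RefSeq promoter table (GRCm38.p6) are shown because these genes carried the widest library-to-library differences, and they differ in base composition. Only bases outside annotated exons are printed, 5′ to 3′ on the gene's strand, and capitals mark a match to the TATA box (TATAAA, read on both strands, here on the minus strand). The Gad1 stretch lies before the RefSeq start, within the longer span that GENCODE gives the gene.
Gad1, chr2:70561879-70562041: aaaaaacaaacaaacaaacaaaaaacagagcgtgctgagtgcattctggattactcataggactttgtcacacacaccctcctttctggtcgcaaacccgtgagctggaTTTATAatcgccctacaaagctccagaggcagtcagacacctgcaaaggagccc
Gad2, chr2:22622077-22622204: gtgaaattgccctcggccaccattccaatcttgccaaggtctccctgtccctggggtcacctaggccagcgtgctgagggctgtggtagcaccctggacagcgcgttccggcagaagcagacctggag
Slc32a1, chr2:158610724-158610757: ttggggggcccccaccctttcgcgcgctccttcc
GC content was 46.6% in the stretch of Gad1, 62.5% in that of Gad2 and 73.5% in that of Slc32a1.

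Gad1 was 40.4, 46.7, 35.9 and 15.9 TPM in the 4 control saline libraries, 4.65, 42.8, 51.2 and 35.1 TPM in control cocaine, 82.7, 69.6, 24.9 and 37.6 TPM in cKO saline and 43.4 and 40.2 TPM in cKO cocaine. The lowest value, in control cocaine 1, lay far under the other 3 libraries of its label, and the highest values came from cKO saline 1 and 2. Gad2 was 29.5, 32.3, 25.0 and 14.6 TPM in control saline, 4.93, 31.1, 32.0 and 17.0 TPM in control cocaine, 44.2, 39.0, 18.1 and 19.8 TPM in cKO saline and 25.0 and 24.7 TPM in cKO cocaine. Slc32a1 was 21.6, 24.1, 16.5 and 10.6 TPM in control saline, 2.82, 28.8, 27.3 and 13.9 TPM in control cocaine, 31.7, 28.7, 13.5 and 16.3 TPM in cKO saline and 19.6 and 20.5 TPM in cKO cocaine. The same libraries were high or low for all 3 genes, and in each gene the cocaine and saline libraries overlapped. The share of Gad2 in the summed Gad1 and Gad2 TPM was 39.9% ± 4.58 (SD, n = 8) in saline and 39.9% ± 6.45 (SD, n = 6) in cocaine libraries, with no difference found (exact permutation test, two-sided, p = 0.989).

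None of the 3 genes passed the limma test, run on log2 of scaled TPM plus 0.5, in any of the 6 contrasts. Averaged over genotype labels, cocaine minus saline on the log2 scale was -0.29 ± 0.51 (SE, adjusted p = 0.704) for Gad1, -0.33 ± 0.40 (SE, adjusted p = 0.564) for Gad2 and -0.21 ± 0.45 (SE, adjusted p = 0.761) for Slc32a1, adjusted over all tested genes by the Benjamini-Hochberg method. These standard errors were larger than those of all other tested members, of which Gabre had the largest (0.21), so that only large changes of these genes could have been detected. In the libraries labelled control the difference was -0.37 for Gad1, and without control cocaine 1 it turned to 0.39 (adjusted p = 0.508). For Slc32a1 it was -0.35 and turned to 0.35 (adjusted p = 0.488), and for Gad2 -0.49 and 0.078.

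The spread of these genes followed other genes of forebrain GABAergic neurons. Over the 14 libraries, the mean log2 level of 13 marker genes (among them Pvalb, Sst, Six3 and Dlx1, of reticular and other forebrain inhibitory neurons) was correlated with Gad1 (Pearson's r = 0.93, Spearman's rho = 0.89), Gad2 (r = 0.94, rho = 0.85) and Slc32a1 (r = 0.93, rho = 0.89). The permutation p of each r was 1e-05, the smallest that 100000 resamples can give, and after Benjamini-Hochberg adjustment over the 14 relations examined it was 4.67e-05, with adjusted p of rho of 0.00056, 0.00135 and 0.00056 in the same order. Without the 2 libraries farthest from the median of the marker level (control cocaine 1 and cKO saline 3), r was 0.89, 0.92 and 0.90. Within the 8 saline libraries r was 0.91, 0.97 and 0.94, and within the 6 cocaine libraries 0.98 for all 3 genes. The summed markers were 61.5 to 128 TPM in control saline, 28.8 to 164 TPM in control cocaine, 49.8 to 197 TPM in cKO saline and 165 to 179 TPM in cKO cocaine. The lowest sum was that of control cocaine 1, where Dlx1 was 0.0487 TPM, and only Vip was listed at 0, in control cocaine 3. Control cocaine 1 also had the highest habenular markers, with which Gad1 had r = -0.62 and rho = -0.23 over the 14 libraries (permutation p = 0.0225 and 0.435, adjusted p = 0.0525 and 0.585).

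**Figure D2:**
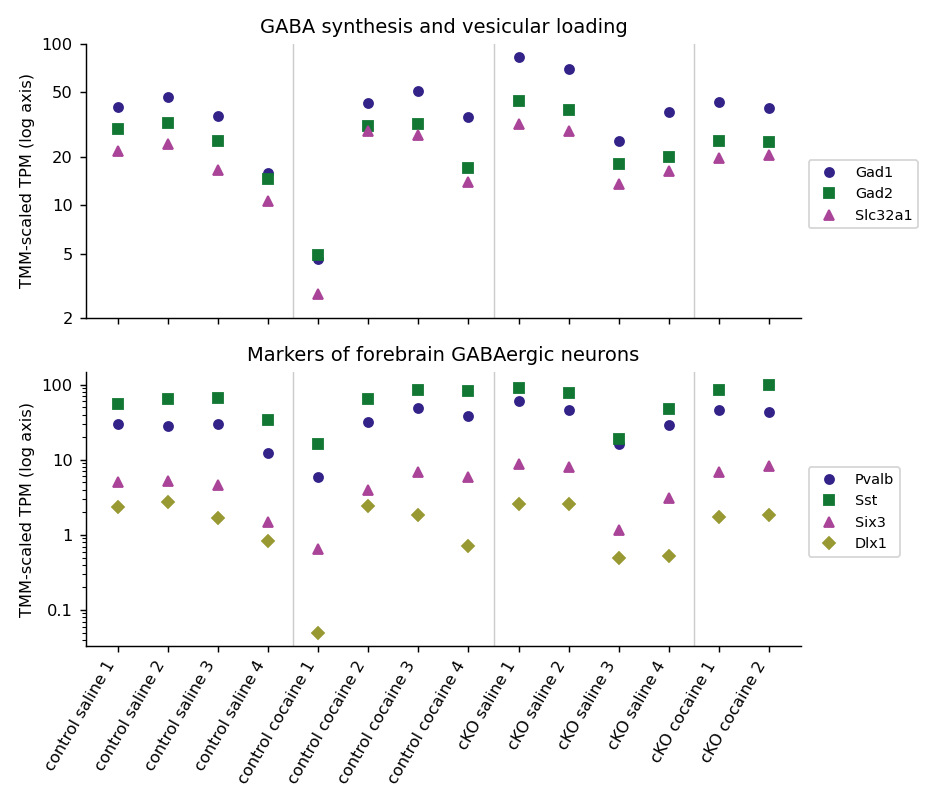
TMM-scaled TPM (log axis) in each library of Gad1, Gad2 and Slc32a1 (upper panel) and of 4 markers of forebrain GABAergic neurons (lower panel), with grey lines between the groups. Both panels dip in control saline 4, control cocaine 1 and cKO saline 3, and the genes of the upper panel are highest in cKO saline 1.

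Abat, the transaminase that breaks down GABA, did not share this spread. It was 62.2, 73.4, 69.1 and 66.3 TPM in control saline, 65.3, 76.8, 77.2 and 77.7 TPM in control cocaine, 77.0, 71.6, 68.1 and 64.2 TPM in cKO saline and 70.9 and 77.3 TPM in cKO cocaine. The groups overlapped, and Abat was not called for cocaine in either label or on average (log2 difference 0.10 ± 0.057, adjusted p = 0.181). In the libraries labelled control its difference was 0.13 (adjusted p = 0.206), which became 0.19 (adjusted p = 0.0490) without control cocaine 1, the library with 65.3 TPM.

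Over all members, cocaine against saline averaged over genotype labels gave 5 genes called higher and 5 called lower of 25 at an adjusted p under 0.05, with no log2 difference of 0.5 or more in size. Among all 13471 tested genes 15.8% were called higher and 16.5% lower in that contrast, so the members' 20% in each direction was near the background. In the libraries labelled control 5 members were higher and 4 lower, where the backgrounds were 13.3% and 10.3%, and in the libraries labelled cKO 0 were higher and 3 lower, where the backgrounds were 8.5% and 11.7%. In the control label, 3 members lay wholly above in cocaine libraries and 4 wholly below, as did 13.4% and 11.6% of all tested genes, and in the cKO label 3 and 6 did, as did 19.9% and 23.5%. The median log2 difference of the 25 members was -0.11 on average over labels, 0.0018 in the control label and -0.032 in the cKO label, and that of all tested genes -0.0037, -0.0023 and -0.0082. The average contrast gave 6 calls without cKO cocaine 1 and 3 (Gabbr2, Gabrb1 and Gabrg1) without cKO cocaine 2. The control label gave 4 or 5 calls without any one of control cocaine 2 and 3 and the 4 control saline libraries, and the cKO label gave none without either of its 2 cocaine libraries. Of the average calls only that of Gabbr2 remained after trends of the log2 values on GC content and transcript length were removed from each library. In that setting 1401 of 13186 genes were called higher and 1170 lower.

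**Figure D3:**
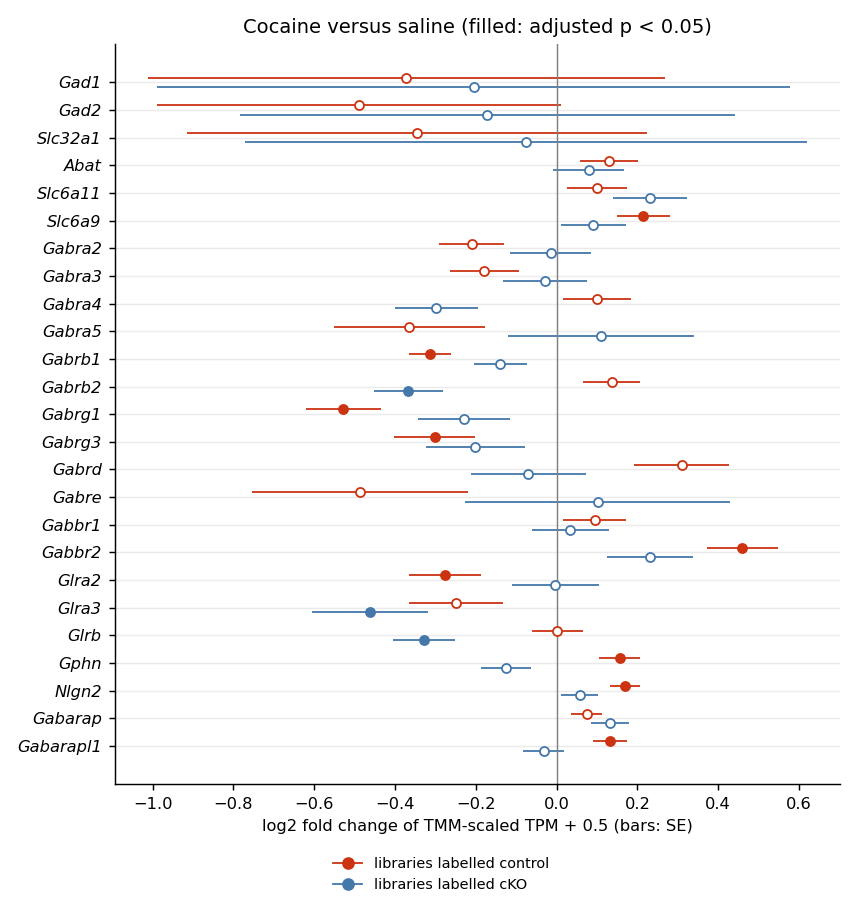
Cocaine minus saline on the log2 scale for the 25 tested members, in libraries labelled control (red) and cKO (blue), with standard errors as bars and filled points for an adjusted p under 0.05. The largest called difference is that of Gabrg1 in the control label (-0.53), and the bars of Gad1, Gad2 and Slc32a1 are the widest.

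Of the 2 uptake carriers that were tested, both were called higher after cocaine on average, as were 15.8% of all tested genes. Slc6a9 (GlyT1), which removes glycine around glia and synapses, was 27.0, 29.1, 28.6 and 28.7 TPM in control saline, 28.8, 34.2, 36.8 and 32.7 TPM in control cocaine, 32.5, 30.4, 29.5 and 28.1 TPM in cKO saline and 31.3 and 32.9 TPM in cKO cocaine. The cocaine and saline ranges overlapped, with control cocaine 1 and cKO cocaine 1 below the highest saline library. Its average log2 difference was 0.15 ± 0.052 (SE, adjusted p = 0.0398), and 0.21 ± 0.066 (SE, adjusted p = 0.0328) in the control label. Slc6a11 ranged from 106 to 133 TPM in the 8 saline libraries and from 119 to 143 TPM in the 6 cocaine libraries, with an average difference of 0.17 ± 0.059 (SE, adjusted p = 0.0474). Neither call held after GC content and length trends were removed (0.049 and 0.084, adjusted p = 0.566 and 0.344), and both differences were negative in unscaled TPM (-0.21 and -0.20).

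Of the 10 GABA-A subunit genes, 3 were called lower and 0 higher after cocaine on average, against 16.5% lower and 15.8% higher among all tested genes, and their median log2 difference was -0.12. The called genes were Gabrb1, Gabrg1 and Gabrg3. Gabrb1 and Gabrg1 lie with Gabra2 and Gabra4 in one cluster on chromosome 5 (Gabrg1 chr5:70751047-70842617, Gabra2 chr5:70957597-71095849, Gabra4 chr5:71569749-71658308 and Gabrb1 chr5:71658113-72149037, GRCm38). The ends of Gabra4 and Gabrb1 overlap on opposite strands, and the libraries were made with a directional kit. On chromosome 7, Gabrg3 lies beside Gabra5 (chr7:56716465-57387188 and chr7:57407672-57510059).

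Gabrb1, a beta subunit also expressed by astrocytes, was 14.5, 16.4, 16.0 and 16.0 TPM in control saline, 11.5, 12.5, 12.7 and 13.4 TPM in control cocaine, 16.2, 14.8, 16.4 and 15.7 TPM in cKO saline and 14.5 and 14 TPM in cKO cocaine. All 4 libraries labelled control cocaine lay below all 8 saline libraries, and the 2 labelled cKO cocaine lay below those labelled cKO saline and reached the lowest control saline library. The log2 difference was -0.23 ± 0.042 (SE, adjusted p = 0.00134) on average, -0.31 ± 0.053 (SE, adjusted p = 0.00148) in the control label and -0.14 ± 0.064 (SE, adjusted p = 0.149) in the cKO label. The average call was kept with each of the 14 libraries left out in turn, and was lost with GC content and length trends removed (-0.065, adjusted p = 0.290), where that of the control label remained (-0.18, adjusted p = 0.0254).

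Gabrg1, a gamma subunit gene on the minus strand, is shown with its upstream bases because it had the largest called difference and the most AT-rich upstream stretch of the genes printed here. The 250 bases before the RefSeq start (chr5:70842618-70842867, GRCm38.p6) were 35.6% GC, and capitals mark 2 overlapping matches to the homeodomain core TAATTA, searched on both strands.
Gabrg1: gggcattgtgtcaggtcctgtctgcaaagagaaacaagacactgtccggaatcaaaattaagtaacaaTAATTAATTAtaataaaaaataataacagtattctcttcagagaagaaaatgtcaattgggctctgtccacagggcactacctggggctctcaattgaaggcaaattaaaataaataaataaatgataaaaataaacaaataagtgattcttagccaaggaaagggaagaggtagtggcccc
TAATTA occurred in 4.84% of 32851 RefSeq windows of the same length. Among the 31 windows of the 24 members that had one, it was in 1, that of Gabrg1. A match is a description of the letters and not evidence of binding.

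Gabrg1 was 7.05, 7.81, 7.82 and 7.13 TPM in control saline, 4.84, 5.34, 5.14 and 4.75 TPM in control cocaine, 6.18, 5.82, 7.74 and 5.11 TPM in cKO saline and 5.24 and 5.10 TPM in cKO cocaine. The control groups were wholly apart, whereas in the cKO label the lowest saline library (cKO saline 4) reached the cocaine range. The log2 difference was -0.53 ± 0.092 (SE, adjusted p = 0.00190) in the control label, the only member past 0.5 in size among those called there, -0.23 ± 0.11 (SE, adjusted p = 0.175) in the cKO label and -0.38 ± 0.073 (SE, adjusted p = 0.00182) on average. The difference between the labels was not called (interaction 0.30 ± 0.15, adjusted p = 0.302). With trends of GC content and length taken out, the difference was -0.40 (adjusted p = 0.0194) in the control label and on average -0.20 (adjusted p = 0.112).

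The level of Gabrg1 moved with hypothalamic markers. Over the 14 libraries its log2 level and the mean log2 level of the 10 hypothalamic markers had Pearson's r = 0.72 and Spearman's rho = 0.71 (permutation p = 0.00274 and 0.00559, adjusted over the 14 relations 0.00959 and 0.0196). Without the 2 farthest libraries (control saline 2 and control cocaine 1) r was 0.61, and it was 0.61 within saline and 0.82 within cocaine libraries. Oxt was 101, 179.8, 182 and 87.9 TPM in control saline and 0, 0, 0.231 and 0 TPM in control cocaine, and Avp, the other magnocellular hormone gene, 69.6, 74.0, 43.8 and 16.4 and 0.464, 0.469, 2.10 and 0.737 TPM. In the cKO label Oxt was 2.37, 2.58, 24.6 and 0.580 TPM after saline and 8.72 and 52.4 TPM after cocaine. Pmch was 50.6, 104, 13.9 and 17.4 TPM in control saline and 0.231, 96.4, 64.2 and 2.08 TPM in control cocaine. Of the 8 hypothalamic markers tested, 5 were called lower and 0 higher in the control label (10.3% and 13.3% of all tested genes). In the cKO label 0 were called lower and 1 higher (11.7% and 8.5% of all tested genes), while the log2 difference of Gabrg1 was -0.23. The part of hypothalamic tissue in the difference of Gabrg1 was not tested. With the mean level of 8 astrocyte markers, Gabrg1 had r = -0.29 and rho = -0.18 (permutation p = 0.313 and 0.544, adjusted p = 0.365 and 0.585).

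Gabrg3 was 3.82, 4.11, 4.10 and 3.81 TPM in control saline, 2.88, 3.05, 3.03 and 3.54 TPM in control cocaine, 4.19, 4.15, 4.37 and 2.91 TPM in cKO saline and 3.39 and 3.20 TPM in cKO cocaine. The control groups did not overlap, and of the cKO saline libraries only cKO saline 4 fell among the cocaine values. The average log2 difference was -0.25 ± 0.079 (SE, adjusted p = 0.0270), and in the control label -0.30 ± 0.10 (SE, adjusted p = 0.0442). Neither was called once these trends of GC content and length were taken out (adjusted p = 0.271 and 0.149).

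Gabrb2, which pairs with alpha and gamma subunits in most fast GABA-A receptors (chr11:42419757-42629028, plus strand), had cocaine differences of opposite sign in the 2 genotype labels. It was 42.8, 42.0, 49.2 and 48.3 TPM in control saline and 46.2, 48.7, 50.4 and 55.1 TPM in control cocaine, and 60.3, 52.9, 59.3 and 52.2 TPM in cKO saline and 42.4 and 44.3 TPM in cKO cocaine. Libraries cKO saline 1 and 3 were the highest of all 14, and cKO saline 2 and 4 were exceeded outside their group only by control cocaine 4. Both libraries labelled cKO cocaine lay below all of cKO saline and within the range of control saline. The log2 difference was 0.14 ± 0.070 (SE, adjusted p = 0.181) in the control label and -0.37 ± 0.086 (SE, adjusted p = 0.0110) in the cKO label, and the interaction was -0.50 ± 0.11 (SE), at an adjusted p of 0.0498. This was the only member called for the interaction, against a background of 0.542% called higher and 0.735% called lower, and the call held in 7 of 26 alternatives, including 2 of the 14 fits that left a library out. With the labels of the cocaine groups exchanged, an alternative added after the data were seen, the interaction was -0.10 (adjusted p = 0.846). Once GC content and length trends were taken out, the interaction was -0.45 (adjusted p = 0.0656), and the control label difference was 0.22 (adjusted p = 0.0488).

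The other 6 GABA-A subunit genes were not called in any contrast. Gabra4, the alpha subunit of extrasynaptic thalamic receptors, ranged from 35.3 to 52.4 TPM in saline and 37.9 to 50.4 TPM in cocaine libraries, with log2 differences of 0.10 ± 0.084 (SE, adjusted p = 0.417) and -0.30 ± 0.10 (SE, adjusted p = 0.0590) in the control and cKO labels. Gabrd ranged from 18.4 to 35.8 TPM, with 0.31 ± 0.12 (SE, adjusted p = 0.0722) in the control label. Its log2 level had r = 0.69 and rho = 0.38 with thalamic glutamatergic markers (permutation p = 0.00863 and 0.182, adjusted p = 0.0242 and 0.51), which rested on 2 libraries, without which r was 0.046. Gabra2, Gabra3 and Gabra5 had average differences of -0.11, -0.10 and -0.13 (adjusted p = 0.203, 0.268 and 0.554). Gabre, on chromosome X, was under 1.5 TPM in every library and had an average difference of -0.19 ± 0.21 (SE, adjusted p = 0.526).

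Of the 2 GABA-B receptor genes, Gabbr2 was called higher after cocaine on average, as were 15.8% of all tested genes, and Gabbr1 was not called. Gabbr2, the subunit that couples the receptor to G proteins (chr4:46662305-46991873, minus strand), was 74.7, 74.2, 84.1 and 88.6 TPM in control saline, 121, 97.6, 101 and 124 TPM in control cocaine, 84.7, 82.5, 89.2 and 79.9 TPM in cKO saline and 91.1 and 107 TPM in cKO cocaine. Every cocaine library was above every saline library, and Gabbr2 was the only member for which this held. Among all tested genes 5.23% lay wholly above and 5.44% wholly below in this way, and no member lay wholly below. The log2 difference was 0.35 ± 0.069 (SE, adjusted p = 0.00229) on average, 0.46 ± 0.087 (SE, adjusted p = 0.00301) in the control label and 0.23 ± 0.11 (SE, adjusted p = 0.149) in the cKO label, and the interaction was -0.23 ± 0.14 (adjusted p = 0.406). The average call was kept in 24 of 25 alternatives, among them each library left out and the removal of GC content and length trends (0.24, adjusted p = 0.0307). Of the 8 thalamic glutamatergic markers, 3 were called higher in the control label and 2 on average, as were 13.3% and 15.8% of all tested genes. In the cKO label 1 was called higher and 1 lower (8.5% and 11.7% of all tested genes). Slc17a6 was 69.3 to 104 TPM in saline and 69.3 to 93.6 TPM in cocaine libraries. Control cocaine 1 and 4, with the most Gabbr2, had the highest sums (612 and 692 TPM). The lowest sum in control cocaine (496 TPM) was below the highest in cKO saline (590 TPM). The part of these markers in the difference of Gabbr2 was not tested. The call was lost in unscaled TPM, where Gabbr2 differed by -0.023 while the median of all genes was -0.34.

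**Figure D4:**
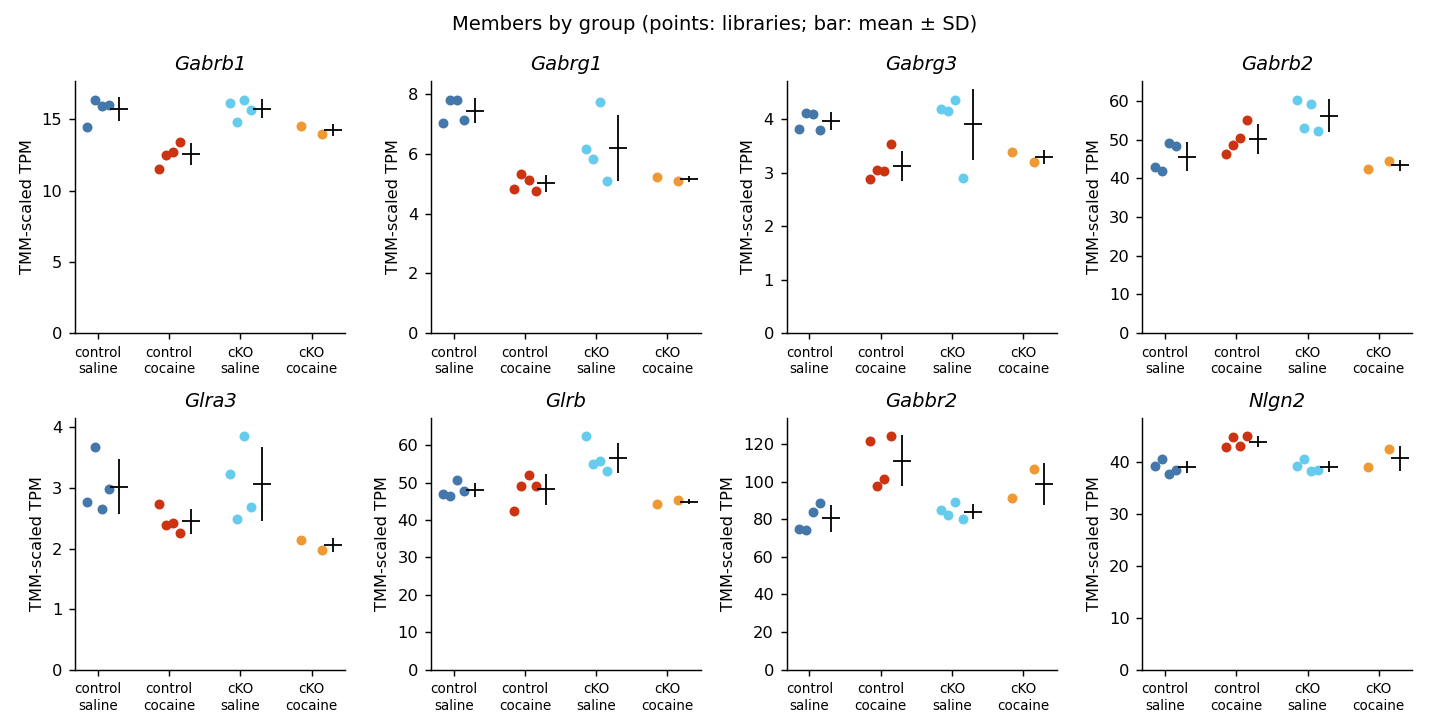
TMM-scaled TPM of 8 members by group, with a point per library and the mean ± SD as a black bar. Gabbr2 is higher in all 6 cocaine libraries than in all 8 saline libraries, Gabrb1 and Gabrg1 are lower in control cocaine than in all control saline libraries, and Gabrb2, Glra3 and Glrb are low in the 2 libraries labelled cKO cocaine.

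Gabbr1, which binds GABA, was 178, 177, 187 and 204 TPM in control saline, 238, 180.4, 185 and 196 TPM in control cocaine, 168, 174, 181 and 180.4 TPM in cKO saline and 174 and 187 TPM in cKO cocaine. The cocaine and saline values overlapped, with control cocaine 1 the highest, and the average log2 difference was 0.064 ± 0.061 (SE, adjusted p = 0.463). Since both subunits are read in the same library, their proportion does not depend on the scaling between libraries. Gabbr2 made up 29.5, 29.5, 31.1 and 30.3% of the summed Gabbr1 and Gabbr2 TPM in control saline and 33.6, 32.1, 33.0 and 30.7% in cKO saline. It made up 33.7, 35.1, 35.4 and 38.7% in control cocaine and 34.4 and 36.4% in cKO cocaine. The cocaine and saline libraries did not overlap, although control cocaine 1 and cKO saline 1 were nearly equal, and the means were 35.6% ± 1.75 (SD, n = 6) and 31.2% ± 1.53 (SD, n = 8). The difference of 4.40 percentage points had an exact permutation p of 0.000666 (two-sided, 3003 splits), or 0.00533 adjusted over the 16 shares examined. It lay between 3.79 and 4.78 points when each library was left out, and once GC content and length trends were taken out it was 3.97 points (exact p = 0.000999). With habenular markers, Gabbr1 had r = 0.52 and rho = 0.19 (permutation p = 0.0634 and 0.521, adjusted p = 0.111 and 0.585), and Gabbr2 r = -0.060 and rho = -0.16 (permutation p = 0.841 and 0.585, adjusted p = 0.841 and 0.585).

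The upstream bases of Gabbr2 outside annotated exons (chr4:46991874-46991964, minus strand, GRCm38.p6) are printed because Gabbr2 carried this difference, and they held 85.7% G and C.
Gabbr2: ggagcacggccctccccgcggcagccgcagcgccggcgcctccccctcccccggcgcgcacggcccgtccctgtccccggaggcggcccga
Over the 31 RefSeq windows of the 24 members that had one, the median GC content was 60.4%, against 52.4% over all 32851 windows. The GC box GGGCGG was searched on both strands in the 250 bases before each start. It was in 16 of the 31 member windows and in 32.7% of all windows. TATAAA was in 5 of the 31 member windows, of 4 members (Gabra3, Gabrb2, Gad1 and Glra2), and in 12.4% of all windows. The cAMP response element TGACGTCA was in none of the members' windows and in 1.55% of all windows.

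Glycine receptors are chloride channels of alpha subunits (here Glra2 and Glra3) and the beta subunit Glrb, which anchors them to gephyrin. Of the 3 genes, Glra3 and Glrb were called lower after cocaine on average and none higher, where 16.5% of all tested genes were lower and 15.8% higher. Glra3 was 2.77, 3.67, 2.65 and 2.98 TPM in control saline, 2.73, 2.38, 2.42 and 2.26 TPM in control cocaine, 3.23, 2.48, 3.85 and 2.69 TPM in cKO saline and 2.14 and 1.98 TPM in cKO cocaine. The libraries labelled cKO cocaine were the lowest of all 14, and the control groups overlapped. Cocaine minus saline was -0.36 ± 0.093 (SE, adjusted p = 0.0108) on the log2 scale on average, -0.25 ± 0.12 (SE, adjusted p = 0.141) in the control label and -0.46 ± 0.14 (SE, adjusted p = 0.0386) in the cKO label.

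Glrb was 47.1, 46.6, 50.8 and 47.8 TPM in control saline, 42.4, 49.2, 52.1 and 49.2 TPM in control cocaine, 62.4, 55.1, 55.8 and 53.2 TPM in cKO saline and 44.4 and 45.4 TPM in cKO cocaine. The control groups overlapped and the cKO groups did not. Its log2 difference was 0.0018 ± 0.063 (SE, adjusted p = 0.986) in the control label and -0.33 ± 0.077 (SE, adjusted p = 0.0111) in the cKO label, with an interaction of -0.33 ± 0.10 (adjusted p = 0.10). That interaction was called without control cocaine 1 (-0.39, adjusted p = 0.0362). Glra2, the alpha subunit of immature neurons, on chromosome X, was 6.58, 7.16, 6.71 and 6.82 TPM in control saline and 4.65, 5.99, 5.49 and 6.15 TPM in control cocaine. These ranges did not overlap, and the difference of -0.28 ± 0.088 (SE, adjusted p = 0.0382) was called in the control label. In the cKO label it was -0.0028 ± 0.11 (SE, adjusted p = 0.989). Once GC content and length trends were taken out, none of these glycine receptor calls remained, with adjusted p of 0.212 for Glra3 and 0.969 for Glrb on average, and 0.266 for Glra2 in the control label.

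Of the 2 postsynaptic genes, Nlgn2, the adhesion protein of inhibitory synapses, was called higher on average. It was 39.3, 40.6, 37.8 and 38.6 TPM in control saline, 43.0, 44.8, 43.1 and 45.0 TPM in control cocaine, 39.3, 40.5, 38.2 and 38.5 TPM in cKO saline and 39.1 and 42.5 TPM in cKO cocaine. All 4 libraries labelled control cocaine lay above all 8 saline libraries. Its log2 difference was 0.11 ± 0.029 (SE, adjusted p = 0.0109) on average and 0.17 ± 0.037 (SE, adjusted p = 0.00671) in the control label, and it was -0.023 (adjusted p = 0.568) on average with GC content and length trends removed. Gphn, which encodes the scaffold gephyrin, was 11.6 ± 0.852 TPM (SD, n = 4) in control saline and 13.0 ± 0.586 TPM (SD, n = 4) in control cocaine, a called difference of 0.16 ± 0.051 (SE, adjusted p = 0.0409). In the cKO label it was 13.0 ± 0.323 TPM (SD, n = 4) after saline and 11.9 ± 0.10 TPM (SD, n = 2) after cocaine, with -0.13 ± 0.062 (SE, adjusted p = 0.175), and the interaction was -0.28 ± 0.080 (adjusted p = 0.0878).

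Gabarap and Gabarapl1 encode small ubiquitin-like proteins that carry GABA-A receptors and take part in autophagy. Gabarap was 55.2, 54.8, 54.7 and 52.4 TPM in control saline, 53.5, 56.3, 61.1 and 58.0 TPM in control cocaine, 52.7, 52.2, 51.9 and 50.8 TPM in cKO saline and 56.7 and 57.1 TPM in cKO cocaine. The cocaine libraries were higher except control cocaine 1, and the average log2 difference was 0.10 ± 0.031 (SE, adjusted p = 0.0206). Gabarapl1 was 144, 164, 157 and 152 TPM in control saline and 166, 172, 171 and 168 TPM in control cocaine, ranges that did not overlap, with 0.13 ± 0.042 (SE, adjusted p = 0.0375). In the cKO label its difference was -0.032 ± 0.051 (SE, adjusted p = 0.705).

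The proportions of the 3 family genes within a library differed between treatments. Gabarapl2, the relative that is not a member, held 34.2% ± 1.61 (SD, n = 8) of the summed TPM in saline and 29.8% ± 1.49 (SD, n = 6) in cocaine libraries, with no overlap (exact permutation p = 0.000333, the smallest these splits can give). Gabarap held 16.6% ± 0.527 and 18.0% ± 0.819, and Gabarapl1 49.3% ± 1.88 and 52.1% ± 1.19 (exact permutation p = 0.00233 and 0.00300, both 0.0120 after adjustment over 16 shares). Once these trends of GC content and length were taken out, the difference was -2.24 points for Gabarapl2 (exact p = 0.023), 1.22 points for Gabarap (exact p = 0.00633) and 1.02 points for Gabarapl1 (exact p = 0.333).

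**Figure D5:**
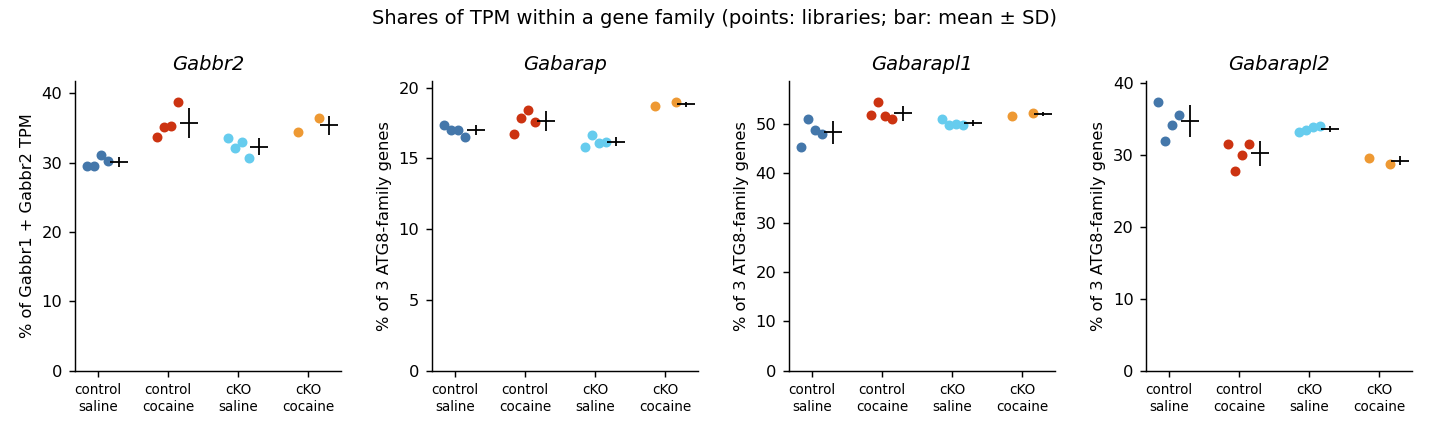
Share of Gabbr2 in the summed TPM of Gabbr1 and Gabbr2, and of Gabarap, Gabarapl1 and Gabarapl2 in the summed TPM of these 3 genes, in percent, with a point per library and the mean ± SD as a black bar. The share of Gabbr2 is 33.7% or more in every cocaine library and 33.6% or less in every saline library.

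Between genotype labels, no member was called after saline or after cocaine in the limma fit, where 6 and 4 of the 25 members had an unadjusted p under 0.05, as had 16.7% and 12.1% of all tested genes. Few genes were called in these contrasts: 0.0594% of tested genes were called higher and 0.0965% lower in cKO than in control saline libraries, and for cKO against control labels after cocaine the shares were 0.0148% and 0.0371%. Median-of-ratios scaling gave 0 members as well, and quantile normalization gave 1 after saline, Gabrb2 (adjusted p = 0.0447). Under TMM the saline difference of Gabrb2 was 0.30 ± 0.070 (SE, adjusted p = 0.0864) and that of Glrb 0.23 ± 0.063 (SE, adjusted p = 0.115), both higher in cKO, and that of Gabrg1 was -0.26 ± 0.092 (SE, adjusted p = 0.194). Gad1 differed by 0.57 ± 0.64 (SE, adjusted p = 0.705) between the saline groups.

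A further list of 30 inhibitory synapse genes outside the members was followed for context, of which 21 were tested. On average over labels, 2 were called higher after cocaine and 7 lower, against 15.8% and 16.5% of all tested genes. The genes called lower included the Gabarap relative Gabarapl2 (log2 difference -0.23), the GABA breakdown enzyme Aldh5a1 (-0.17), the chloride importer Slc12a2 (-0.33) and the GABA-B auxiliary subunits Kctd12 (-0.28) and Kctd16 (-0.24 ± 0.044, adjusted p = 0.00127). The genes called higher were the postsynaptic genes Insyn1 (0.20) and Shisa7 (0.24). Kctd16, which shapes the kinetics of GABA-B responses, was 5.63, 5.04, 5.70 and 5.36 TPM in control saline and 8.02, 8.02, 7.04 and 7.38 TPM in cKO saline, without overlap. In control cocaine Kctd16 was 5.58, 5.12, 5.17 and 5.68 TPM, within the range of control saline. It was the only gene of this list called between the saline groups (0.45 ± 0.056, adjusted p = 0.00633) and for the interaction (-0.46 ± 0.088, adjusted p = 0.0336), and in cKO cocaine it was 5.42 and 5.28 TPM. In the control label Gabrq, a subunit prominent in hypothalamus, was 3.78, 5.13, 2.56 and 2.78 TPM after saline and 1.90, 2.56, 1.61 and 1.13 TPM after cocaine (-0.82 ± 0.26, adjusted p = 0.0359).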

How the data were processed

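RNA from dissected thalamus was depleted of ribosomal RNA, and directional libraries were sequenced as paired ends. Reads were aligned with STAR 2.5.3a to mm10 (GRCm38.p4) and quantified with Salmon, per the submitters' processing notes and the study's methods, and the authors deposited gene-level TPM per library. The 14 tables list the same 25080 genes, and 2 of them, written with decimal commas, were read as TPM. TPM hold no read counts, so the depth of a library, and with it a counting interval, is unknown. No per-sample column lacked a sample.

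From the deposited TPM, TMM factors (trimming 30% of log ratios and 5% of mean values) were computed, and log2(scaled TPM + 0.5) of genes with at least 1 TPM in 3 or more libraries was fitted with limma 3.58.1 (R 4.3.3), a mean for each of the 4 groups and an intensity trend. A fold change on this scale understates the change of low genes. Calls required an adjusted p (Benjamini-Hochberg, over all tested genes) under 0.05. Groups came from the sample titles, and p-values measure the spread between libraries labelled as replicates. Shares within a family were compared by exact permutation over the libraries (16 shares, of which those of the GABA-A receptor families are not reported here), and relations with marker lists by 100000 permutations (Python 3.11.15, scipy 1.17.1). In simulated data for the control label, 189 of 200 genes changed by 1 on the log2 scale were called among 13237 genes. The largest called member difference was -0.53 (Gabrg1, control label), and recovery of changes of that size or smaller was not simulated.

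All 26 members are named. Those called in any contrast, those with a library standing apart and Gad1, Gad2 and Slc32a1 are given with values, and of the other inhibitory genes those called. Members and lists were chosen with earlier results of these data known. Alternatives covered the scaling, pseudocount, filter, variance trend, samples in the fit, replicate number, genotype tag, GC content and length, and each library left out. Those for the GABA-B and Gabarap family shares, and an exchange of the cocaine groups' labels for the interaction, were added after the data were seen. Gene positions are from GENCODE (GRCm38) and promoter bases from RefSeq (GRCm38.p6).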

Additional observations from a re-analysis of the deposited data

Results flagged for a closer look

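Within single groups of 4 libraries, 4 values stood apart from the other 3 by Dixon's criterion, out of 75 groups of libraries examined over 25 members, where chance flags about 1 in 20. Control cocaine 1 was low for Gad1 (4.65 TPM, the others 35.1 to 51.2 TPM) and for Abat (65.3 TPM, the others 76.8 to 77.7 TPM), and it also had the lowest summed forebrain GABAergic markers and the highest habenular markers. Their part in these values was not tested.

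Gabrg3 was 2.91 TPM in cKO saline 4, against 4.15 to 4.37 TPM in the other 3 libraries of that group. Gabarap was 52.4 TPM in control saline 4, against 54.7 to 55.2 TPM in the others.

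The effect of cocaine on Gabrb2 differed between the genotype labels, with an interaction of -0.50 on the log2 scale (limma, adjusted p = 0.0498). Gabrb2 fell in the libraries labelled cKO, 2 of 2 cocaine libraries being below all 4 saline libraries (as for 23.5% of all tested genes), and was not called in those labelled control. Maged1 ran against the labels of the cocaine groups, and with those labels exchanged the interaction was -0.10 (adjusted p = 0.846).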

How the results depend on the processing

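Of 584 alternative values of called member results, 418 kept their direction and call, 156 kept the direction but not the call, and 10 changed sign. In unscaled TPM the average difference turned to -0.20 for Slc6a11, -0.21 for Slc6a9, -0.023 for Gabbr2, -0.25 for Nlgn2 and -0.26 for Gabarap, and the control label difference to -0.15 for Slc6a9, -0.20 for Gphn, -0.20 for Nlgn2 and -0.24 for Gabarapl1. There the median of all genes was also lower after cocaine. Without GC content and length trends the average difference of Nlgn2 was -0.023.

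For cocaine on average, the 10 members called became 20 in unscaled TPM (0 higher, 20 lower), 6 under quantile normalization, 1 without GC content and length trends, 0 with a log2 difference of at least 0.5, and 3 to 10 with a library left out. For the control label, the 9 became 19 in unscaled TPM, 4 under quantile normalization, 5 without a filter, 5 without GC content and length trends, 1 with the fold minimum, and 4 to 9 with a library left out. For the cKO label, the 3 became 18 in unscaled TPM, 0 with genotypes from the tag, 0 without GC content and length trends, 0 with the fold minimum, and 0 to 4 with a library left out. When a cKO cocaine library is left out, the remaining one is assumed to vary like the other groups. Over all genes, the fit without a filter gave 1609 higher and 1341 lower of 20427 in the control label. Genotypes from the tag gave 784 higher and 1050 lower of 13471 in the cKO label. The fold minimum left 277 genes on average, 416 in the control label and 414 in the cKO label. Between genotype labels after saline, 1 member was called under quantile normalization, where 42 of all tested genes were higher and 54 lower. The 1 interaction call became 0 in unscaled TPM, without a filter, without an intensity trend, with genotypes from the tag, with the labels of the cocaine groups exchanged (added after the data were seen) and without GC content and length trends, and 0 to 2 with a library left out. Of all 13471 tested genes, unscaled TPM gave 120 higher and 10661 lower on average. It gave 112 and 9515 in the control label, and 107 and 8124 in the cKO label. Quantile normalization gave 2048 and 2237 on average, and 1571 and 1534 in the control label. Without GC content and length trends 13186 genes were tested. There 1401 and 1170 were called on average, 1488 and 902 in the control label, and 572 and 572 in the cKO label. The cause of these changes was not tested.

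With the replicate number as a replicate block, 7 members were called on average, 6 in the control label, 2 in the cKO label and 0 for the interaction. Of all 13471 genes 1897 were higher and 1974 lower on average, and 1541 and 1191 in the control label. The cKO label had 855 and 1067, and the interaction 19 and 18. Deviations of libraries with the same number had a mean r of -0.014 over 18 pairs (-0.166 to 0.103), and those with different numbers 0.005 over 54 pairs, so the numbers did not pair the libraries.

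The higher share of Gabarapl1 in cocaine libraries was 1.02 percentage points, exact permutation p = 0.333, without GC content and length trends. The shares of Gabbr2, Gabarap and Gabarapl2 kept their direction and an unadjusted p under 0.05 in the alternatives added after the data were seen.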
